A study of Mus musculus with 9 samples.

Results

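URE-AML leukemic cells were compared with Hox-URE preleukemic progenitors to describe what separates blasts from immortalized cells when both already lack the upstream regulatory element (URE), the distal enhancer of the PU.1 gene Spi1. Members were chosen by line label alone, which gave 3 URE-AML and 3 Hox-URE libraries of 9 in the series, and all 13082 genes that passed the filter on low counts were examined. The Hox-URE line was made from lineage-negative, c-Kit positive bone marrow of a URE-deleted mouse, immortalized by an estradiol-dependent fusion of Hoxb8 and the estrogen receptor (Hoxb8-ER). The URE-AML line, named B22 in the labels, was derived from leukemic blasts of a URE-deleted mouse by culture with IL-3, without such a transgene in the account of its derivation. The design text of the series instead names a HoxURE mouse as its donor, and this difference could not be settled. Hox-WT, the line made like Hox-URE from a wild-type mouse, contributed its 3 libraries to the shared estimate of spread and served as a reference for levels. All 3 lines were grown in the same medium with serum, IL-3, IL-6, SCF and β-estradiol and were not otherwise treated, and the ages of the lines' donors are not stated separately from those of the young adult mice used for other assays of the study. Each state was represented by 1 line from 1 donor, so leukemic state, Hoxb8-ER, donor and clone cannot be told apart. Whether the libraries of a line stem from different cultures was not given either. The p-values therefore measure the spread between libraries, which may be technical.

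PU.1 is an ETS-family transcription factor whose dosage guides progenitors toward the myeloid lineages, and loss of its distal enhancer lowers that dosage and leads to acute myeloid leukemia in mice after a preleukemic phase. Neutrophil maturation proceeds from promyelocytes, which make primary granule proteases under C/EBPα, to myelocytes and later stages, which make secondary and tertiary granule proteins under C/EBPε. GATA2, in contrast, is a regulator of stem cells, mast cells and basophils, and Hoxb8-ER holds progenitors in an immature, cycling state.

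The 6 libraries held between 20331064 and 28300453 counts. Levels are given as CPM, counts scaled to a common library size with TMM factors. The 3-count floor of detection lay between 0.104 and 0.153 CPM over all 9 libraries. Within each line the libraries correlated at r of 0.976 or higher, and between URE-AML and Hox-URE at 0.758 to 0.777 (Pearson, log2 CPM, across genes). Genes are not independent replicates. Hox-URE library 1 stood apart from the other Hox-URE libraries, with the lowest summed level of mast cell genes (1874 CPM against 4208 and 6706) and the highest of serine and amino acid response genes (7556 CPM against 4896 and 4712). Values without it are given where they change a result.

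A gene was called different at an adjusted p under 0.05 in edgeR's quasi-likelihood test with a fold change over 1.5. Of the 13082 tested genes 5591 (42.7%) were called, with 2662 (20.3%) higher in URE-AML and 2929 (22.4%) lower. These percentages are the background for every list below. The filter used all 9 libraries, so some genes near 0 in both lines were tested through their level in Hox-WT, and counts from the 6 libraries alone are given for the lists this touches most. The ranges of the libraries of the 2 lines did not overlap for 62.8% of tested genes. Differences were large: the median fold of called genes was 3.14, and 1467 of them exceeded 16-fold, 726 higher and 741 lower. Over all tested genes the log2 fold change had a median of 0 and quartiles of -0.60 and 0.52. All log2 fold changes are URE-AML minus Hox-URE with their SE, n = 3 libraries per line, and a list's median is the median of these over its tested genes. A gene with no counts in a line is given as a lower bound against 3 counts in that line's shallowest library, and a gene with 1 to 3 counts over a line as a ratio with its counting interval, which covers counting error only.

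**Figure D1:**
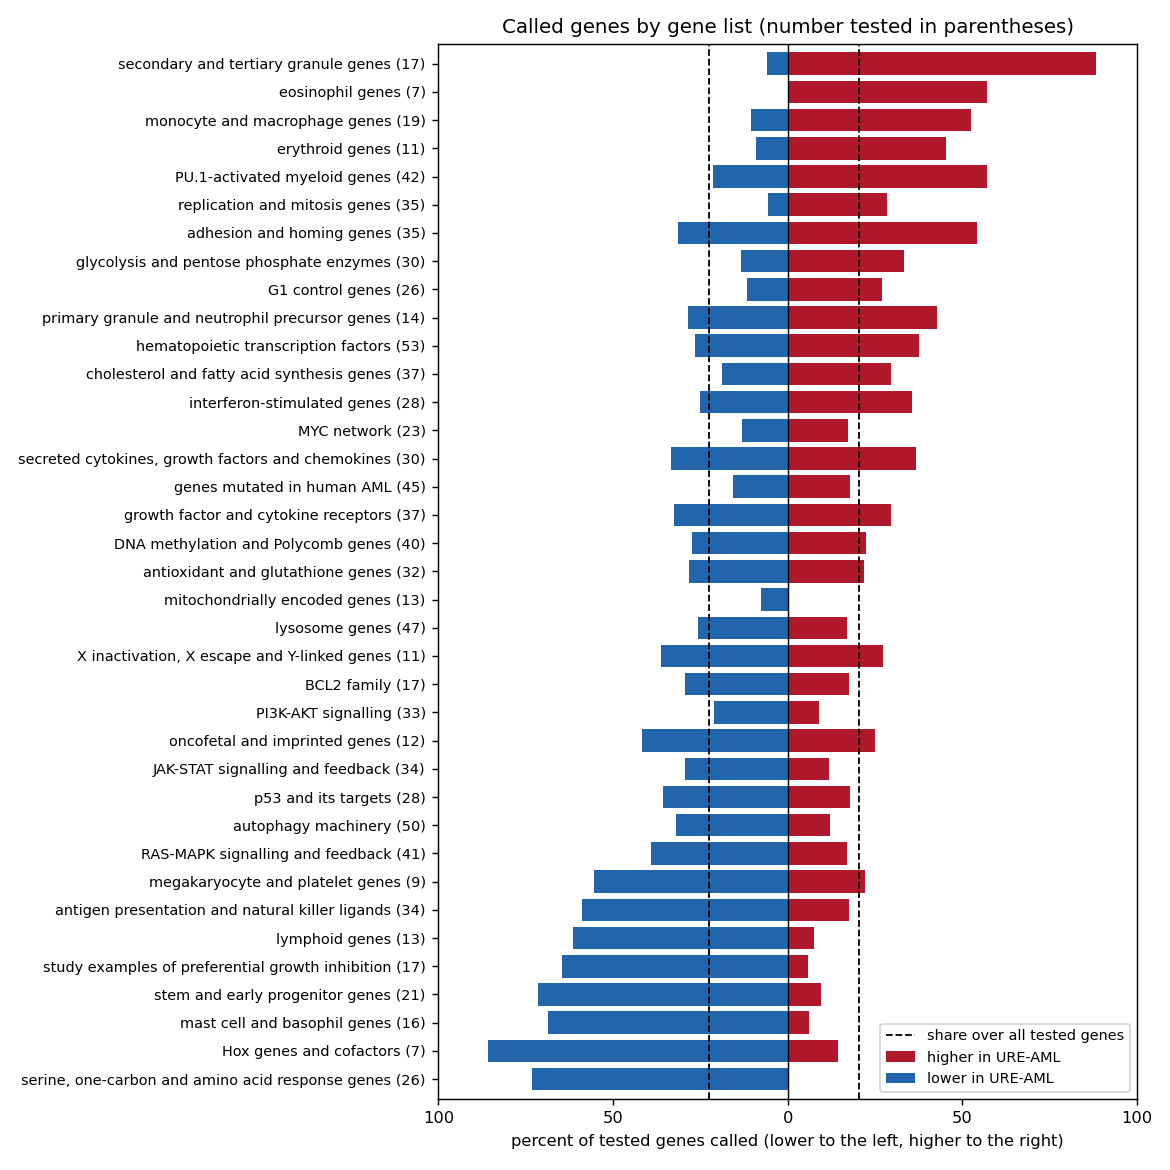
Percent of the tested genes of each gene list called lower (blue, to the left) or higher (red, to the right) in URE-AML, for lists with 7 or more tested genes, with the share over all tested genes dashed (20.3% higher, 22.4% lower). Secondary and tertiary granule genes lie at the top with 15 of 17 higher, and serine, one-carbon and amino acid response genes at the bottom with 19 of 26 lower.

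Spi1, the gene whose enhancer is deleted, measured 2.50, 5.52 and 6.35 CPM in URE-AML and 0.0364, 0.0414 and 0 CPM in Hox-URE. In Hox-URE these levels came from 2 reads in total, so the difference is given with its counting error (ratio 168 in favour of URE-AML, 95% counting interval 46.5 to 1386, adjusted p = 4.29e-06). All 3 URE-AML libraries lay above all Hox-URE libraries, while Hox-WT measured 103 ± 6.79 CPM. Both enhancer-deleted lines were thus far below Hox-WT, and the leukemic line was the less depleted. Because fewer cells of a type and less RNA per cell cannot be told apart in bulk samples, a low Spi1 level in URE-AML may be a low level in all cells or a higher level in a few.

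Of the 42 tested genes that PU.1 is known to activate, 24 were higher, 9 lower and 9 not called. On the log2 scale the list's median was 1.30, or 0.84 with genes at 0 in one line entered at their lower bound. With the 6 libraries alone 32 were tested, of which 19 were higher and 8 lower. Sirpa, an inhibitory receptor of myeloid cells, measured 186, 162 and 202 CPM in URE-AML and 0.0728, 0.0414 and 0.102 CPM in Hox-URE (log2 fold change 11.25 ± 0.21, adjusted p = 4.89e-10). Fcgr2b, the inhibitory IgG receptor, measured 14.7, 15.9 and 19.8 CPM in URE-AML and 0.0364, 0.0414 and 0.0511 CPM in Hox-URE (ratio 398 in favour of URE-AML, 95% counting interval 136 to 1931, adjusted p = 3.98e-09). The NADPH oxidase subunits Ncf1 (2.23), Ncf4 (1.19) and Cyba (1.21) were called higher on the log2 scale. Cybb, the catalytic subunit of the same oxidase, stayed at or below 0.0858 CPM in every URE-AML library and at 0 in Hox-URE, so no fold is given. Its call was lost without URE-AML library 3 and without each Hox-URE library.

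Other PU.1 target genes were lower in the leukemic line. Btk, a kinase of the B cell and myeloid receptors, measured 0.363, 0.476 and 1.33 CPM in URE-AML and 4.99, 27.7 and 54.4 CPM in Hox-URE (log2 fold change -5.31 ± 0.84, adjusted p = 3.60e-04, -6.10 without URE-AML library 3 and -4.49 without Hox-URE library 3). Fcer1g, the shared signalling chain of the Fc receptors, fell by 1.47 on the log2 scale (adjusted p = 5.12e-05), and Coro1a, an actin regulator, by 1.68 (adjusted p = 1.16e-04). Several canonical targets stayed near the floor in both lines. Csf1r, the macrophage colony-stimulating factor receptor, had 1 count in URE-AML and none in Hox-URE, against 0.783 ± 0.259 CPM in Hox-WT, and Fcgr1 had none in either line against 7.80 ± 1.42 CPM in Hox-WT.

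Of the 17 tested secondary and tertiary granule genes 15 were higher in URE-AML, 1 lower and 1 not called. The list's median log2 fold change was 7.89, or 3.73 with genes at 0 in one line entered at their lower bound. Without single libraries the median ran from 6.20 to 8.23, and it was 1.88 over the 6 genes with at least 10 counts in each library. The higher genes include Cybb, described above, and with the 6 libraries alone 14 of 16 were higher. Not all members of the list encode granule proteins. S100a8 and S100a9 encode the calprotectin subunits of neutrophil cytosol, and Csf3r encodes a surface receptor. S100a8 measured 2304, 2762 and 3309 CPM in URE-AML and 0, 0.166 and 0.0511 CPM in Hox-URE, and S100a9 measured 379, 515 and 462 CPM in URE-AML and 0 CPM in all 3 libraries in Hox-URE (at least 2949-fold higher in URE-AML, adjusted p = 3.38e-07). Every URE-AML library held at least 2304 CPM of S100a8, whereas no Hox-URE library exceeded 0.166 CPM.

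Ngp, a neutrophil granule protein, measured 630.3, 1532 and 4042 CPM in URE-AML and 0, 0.0414 and 0.102 CPM in Hox-URE (ratio 48763 in favour of URE-AML, 95% counting interval 16686 to 236457, adjusted p = 4.24e-06). The ratio was 24776 without URE-AML library 3. Its level differed 6.41-fold among the URE-AML libraries, yet the lowest of them remained above every Hox-URE library. Camp, the cathelicidin precursor, measured 473, 493 and 954 CPM in URE-AML and 0, 0 and 0.0511 CPM in Hox-URE (ratio 45630.3 in favour of URE-AML, 95% counting interval 8189.7 to 1802300, adjusted p = 1.44e-07). Cd177, a neutrophil surface glycoprotein, measured 236, 167 and 459 CPM in URE-AML and 0, 0.0414 and 0 CPM in Hox-URE (ratio 20639.6 in favour of URE-AML, 95% counting interval 3704 to 815221, adjusted p = 3.10e-07). These genes were also low in Hox-WT, at 0.643 ± 0.568 CPM for Camp, 0.327 ± 0.350 CPM for Cd177 and 8.41 ± 6.54 CPM for Ngp.

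Lcn2 and Csf3r were measurable in both lines. Lcn2, the siderophore-binding lipocalin, measured 363, 263 and 286 CPM in URE-AML and 174, 114 and 110.0 CPM in Hox-URE (log2 fold change 1.19 ± 0.20, adjusted p = 5.14e-04). Csf3r, the G-CSF receptor, measured 6.79, 17.0 and 12.2 CPM in URE-AML and 3.02, 3.27 and 2.91 CPM in Hox-URE (log2 fold change 1.96 ± 0.28, adjusted p = 1.90e-04). Ltf, lactoferrin, was among the lowest of the group at 1.86, 2.24 and 10.7 CPM in URE-AML and 0 in Hox-URE (at least 32.2-fold higher in URE-AML, adjusted p = 6.54e-04, or 13.4-fold without URE-AML library 3). Anxa1, an anti-inflammatory annexin, went the other way with 109, 88.3 and 60.3 CPM in URE-AML and 805, 1215 and 1374 CPM in Hox-URE (log2 fold change -3.72 ± 0.25, adjusted p = 8.54e-07). Ly6g was not called at 1.17, 1.19 and 4.89 CPM in URE-AML and 0, 0 and 1.12 CPM in Hox-URE. The defining late genes Mmp9, Itgb2l, Fpr1 and Fpr2 did not pass the filter in these libraries.

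**Figure D2:**
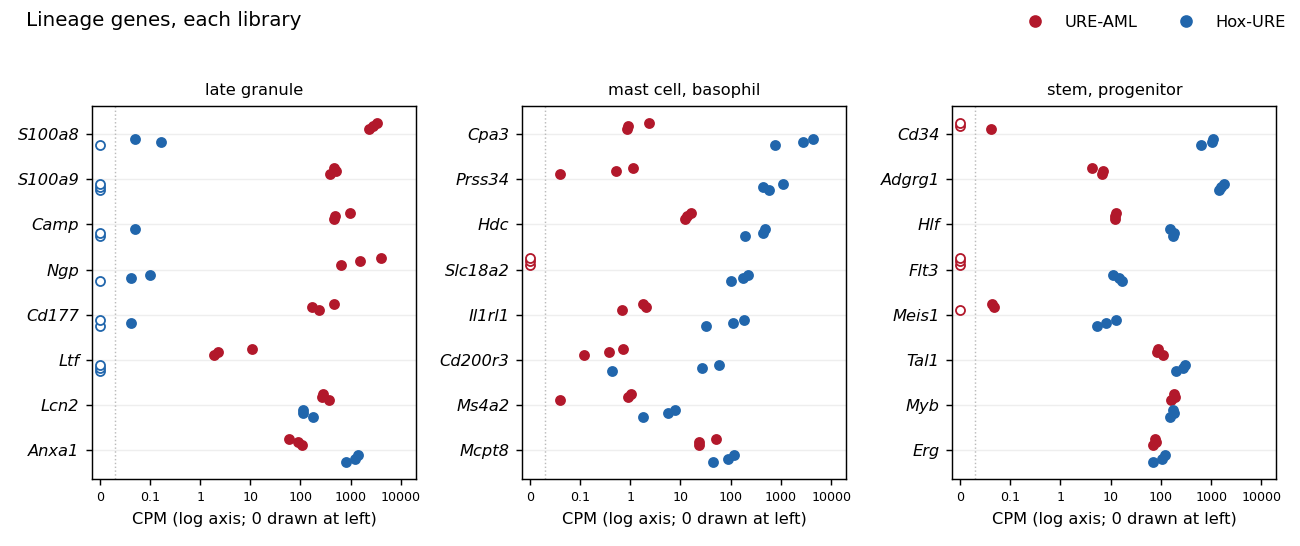
CPM of each URE-AML (red) and Hox-URE (blue) library on a log axis for late granule, mast cell and basophil, and stem and progenitor genes, with open points for libraries at 0. Libraries of S100a8, Camp and Ngp in URE-AML lie at 473 CPM or higher with Hox-URE at or near 0, Cpa3 and Cd34 show the opposite order, and Myb and Erg overlap between the lines.

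Promoters of the late granule genes are shown because 15 of these 17 genes were higher in URE-AML. Promoter here means the 250 bases before the RefSeq start on GRCm38.p6, taken from the transcript listed for each gene. The letters searched were TTGCNNAA on either strand, the 8-letter core of C/EBP sites with a free middle, for which matches on opposite strands can overlap. Of the 17 tested late granule genes 7 held a match (41.2%), against 9.55% of all 27025 promoters and 7.62% of the 9784 promoters of tested genes. The 7 genes were Anxa1, Lcn2, Ltf, Ly6g, Mmp8, Ngp and S100a9, of which 5 were called higher, Anxa1 was called lower and Ly6g was not called. A match is a description of letters and not of binding. The windows of 3 of these genes are printed 5′ to 3′ along the gene's strand with matches in capitals, Ngp at chr9:110419558-110419807, plus strand, S100a9 at chr3:90695722-90695971, minus strand and Ltf at chr9:111019042-111019291, plus strand.
Ngp: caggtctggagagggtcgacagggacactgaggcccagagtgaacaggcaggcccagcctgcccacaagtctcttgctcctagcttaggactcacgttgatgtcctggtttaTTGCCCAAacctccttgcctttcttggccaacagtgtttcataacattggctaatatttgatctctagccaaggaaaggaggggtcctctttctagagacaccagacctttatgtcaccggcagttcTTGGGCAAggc
S100a9: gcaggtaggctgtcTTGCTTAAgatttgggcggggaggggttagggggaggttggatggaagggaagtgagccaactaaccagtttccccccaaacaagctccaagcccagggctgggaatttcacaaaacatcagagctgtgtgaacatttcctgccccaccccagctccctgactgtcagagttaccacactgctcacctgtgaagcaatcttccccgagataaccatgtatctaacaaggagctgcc
Ltf: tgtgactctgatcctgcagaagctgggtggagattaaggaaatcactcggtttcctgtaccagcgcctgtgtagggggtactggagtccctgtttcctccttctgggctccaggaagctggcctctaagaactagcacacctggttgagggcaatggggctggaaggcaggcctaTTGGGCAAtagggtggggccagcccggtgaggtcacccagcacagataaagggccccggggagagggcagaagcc

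S100a8, Camp and Cd177 differed as strongly as these genes and held no match in the same window. The ETS letters GAGGAAGT were present in 3 of the 17 late granule promoters (17.6%, against 2.44% of all promoters), and the RUNX letters TGTGGTTT in 2 (11.8%, against 1.57%). The GATA letters AGATAA were present in 6 of 14 mast cell and basophil promoters (42.9%, against 10.3%), but also in 4 of the 17 late granule promoters (23.5%). C/EBP letters were found in 3 of 14 mast cell and basophil promoters (21.4%) and 3 of 16 stem cell promoters (18.8%). They were found in 1 of 29 promoters of antigen presentation genes (3.45%). Promoters were available for 14 of the 16, 16 of the 21 and 29 of the 34 tested genes of these lists. Among promoters of all tested genes the shares were 2.58% for ETS, 1.06% for RUNX and 6.04% for GATA letters. Members of a list were chosen for their lineage, and the shares are given without a test.

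Primary granule genes, made at an earlier stage, were divided. Of 14 tested, 6 were higher in URE-AML, 4 lower and 4 not called. Their log2 fold changes had a median of 0.50. Without single libraries it ran from 0.16 to 0.73. Elane, neutrophil elastase, measured 4290.1, 7128 and 10514 CPM in URE-AML and 8.85, 10.7 and 8.28 CPM in Hox-URE (log2 fold change 9.62 ± 0.47, adjusted p = 8.70e-08), with 181 ± 62.4 CPM in Hox-WT. Prtn3, proteinase 3, measured 877, 959.7 and 1412 CPM in URE-AML and 115, 129.9 and 133 CPM in Hox-URE (log2 fold change 3.10 ± 0.18, adjusted p = 2.35e-07). Mpo, myeloperoxidase, measured 192, 212 and 174 CPM in URE-AML and 10.2, 2.82 and 2.15 CPM in Hox-URE (log2 fold change 5.22 ± 0.52, adjusted p = 1.55e-05, 6.26 without Hox-URE library 1). Hox-WT held more Mpo than either line at 5042 ± 1516 CPM. Ctsg, cathepsin G, was abundant in both lines and overlapped between them, at 2123, 3933 and 5079 CPM in URE-AML and 2483, 3633 and 3859.6 CPM in Hox-URE (log2 fold change 0.16 ± 0.29, adjusted p = 0.666).

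Ctsc, the dipeptidyl peptidase that activates the granule serine proteases, went in the other direction. It measured 0.606, 0.428 and 0.772 CPM in URE-AML and 187, 241 and 276 CPM in Hox-URE (log2 fold change -8.58 ± 0.24, adjusted p = 3.07e-09), so that URE-AML had the highest Elane and the lowest Ctsc level of the 3 lines. Plac8, a gene of myeloid precursors, measured 2.02, 4.52 and 3.56 CPM in URE-AML and 159.7, 151 and 164 CPM in Hox-URE (log2 fold change -5.57 ± 0.25, adjusted p = 4.30e-08). Ms4a3, a granulocyte-monocyte progenitor marker, measured 71.8, 169 and 291 CPM in URE-AML and 728, 705 and 569 CPM in Hox-URE (log2 fold change -1.91 ± 0.41, adjusted p = 0.00232). Hox-WT held 126 ± 13.8 CPM of Ctsc and 655 ± 97.7 CPM of Plac8.

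Monocyte and macrophage genes were higher for 10 of 19 tested and lower for 2. On the log2 scale the list's median was 2.16. It was 1.42 without URE-AML library 1 and 3.85 with the 6 libraries alone, where 9 of 14 were higher. Ly6c2, a surface marker of inflammatory monocytes and their precursors, measured 645, 347 and 1021 CPM in URE-AML and 0.0364, 0.995 and 0.920 CPM in Hox-URE (log2 fold change 10.08 ± 0.80, adjusted p = 2.68e-06, 9.44 without Hox-URE library 1). Its value is uncertain, since 21.4% of its 31-base words also occur in Ly6c1. F13a1, coagulation factor XIII A, measured 322, 233 and 159 CPM in URE-AML and 1.06, 2.40 and 1.63 CPM in Hox-URE (log2 fold change 7.14 ± 0.49, adjusted p = 9.10e-07). Cd14, the LPS co-receptor, measured 304, 155 and 107 CPM in URE-AML and 5.46, 5.10 and 5.11 CPM in Hox-URE (log2 fold change 5.17 ± 0.41, adjusted p = 2.90e-06). Ccr2, the chemokine receptor that releases monocytes from marrow, was lower in URE-AML with 12.9, 18.5 and 11.6 CPM in URE-AML and 840.3, 939 and 877 CPM in Hox-URE (log2 fold change -5.95 ± 0.20, adjusted p = 7.89e-09), and its Hox-WT level of 12.7 ± 1.92 CPM resembled URE-AML. Fcgr3 was not called, Klf4, Ctss, Mrc1 and Apoe did not pass the filter, and Ms4a6c was at 0 in both lines.

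Eosinophil genes were low in both lines but higher in URE-AML for 4 of 7 tested and lower for 0, or 1 without URE-AML library 1, Hox-URE library 1 or Hox-URE library 3 and in DESeq2. The list's median log2 fold change was 6.46, or 2.74 with genes at 0 in one line entered at their lower bound. Without single libraries it ran from 5.21 to 7.46, and the 6 libraries alone left 4 genes, 3 of them higher. Epx, eosinophil peroxidase, measured 7.71, 12.2 and 32.7 CPM in URE-AML and 0 in Hox-URE (at least 114-fold higher in URE-AML, adjusted p = 2.55e-04, or 65.0-fold without URE-AML library 3). Prg2, major basic protein, measured 3.19, 2.33 and 14.3 CPM in URE-AML and 0.0728, 0.0829 and 0.0511 CPM in Hox-URE (log2 fold change 6.46 ± 0.89, adjusted p = 1.38e-04, 5.21 without URE-AML library 3). The summed level of the 7 genes was 13.1, 16.5 and 53.9 CPM in URE-AML against 0.874, 2.20 and 0.920 CPM in Hox-URE. Siglecf and Ccr3, surface markers of mature eosinophils, were not called and Il5ra was at 0 in both lines. The part of such cells in other results was not tested.

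Mast cell and basophil genes showed the reverse, with 1 of 16 higher in URE-AML, 11 lower and 4 not called and a median of -3.85, or -3.19 with genes at 0 in one line entered at their lower bound. With the 6 libraries alone the median was -4.76. Their summed level was 106, 108 and 128 CPM in URE-AML against 1874, 4208 and 6706 CPM in Hox-URE. Cpa3, mast cell carboxypeptidase, measured 0.848, 0.904 and 2.36 CPM in URE-AML and 768, 2789 and 4437 CPM in Hox-URE (log2 fold change -10.92 ± 0.82, adjusted p = 1.95e-06, -11.56 without URE-AML library 3). Prss34, a basophil protease, measured 0.0404, 0.523 and 1.12 CPM in URE-AML and 591, 442 and 1084 CPM in Hox-URE (log2 fold change -10.31 ± 0.60, adjusted p = 2.84e-07, -9.72 without URE-AML library 1 and -11.35 without URE-AML library 3). Slc18a2, the vesicular transporter that loads histamine, measured 0 CPM in all 3 libraries in URE-AML and 101, 174 and 217 CPM in Hox-URE (at least 1149-fold lower in URE-AML, adjusted p = 7.44e-07). Hdc, the histamine-synthesizing enzyme, measured 12.1, 13.2 and 15.8 CPM in URE-AML and 191, 435 and 478 CPM in Hox-URE (log2 fold change -4.74 ± 0.34, adjusted p = 1.23e-06). The defining receptor and protease genes Fcer1a, Cma1, Tpsb2 and Mcpt4 did not pass the filter. Cpa3 in Hox-WT was 548 ± 178 CPM, while Prss34 there was 0.213 ± 0.0901 CPM.

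Hox-URE libraries themselves differed in these genes. Cd200r3, an activating receptor of mast cells and basophils, measured 0.121, 0.381 and 0.730 CPM in URE-AML and 0.437, 26.6 and 58.7 CPM in Hox-URE (log2 fold change -6.11 ± 1.34, adjusted p = 0.00286, -6.84 without URE-AML library 3, -6.69 without Hox-URE library 1 and -5.04 without Hox-URE library 3), and Hox-URE library 1 lay within the range of URE-AML. Il1rl1, the IL-33 receptor, measured 0.687, 2.05 and 1.76 CPM in URE-AML and 31.8, 110.4 and 184 CPM in Hox-URE (log2 fold change -6.20 ± 0.65, adjusted p = 2.21e-05, -5.59 without Hox-URE library 3). Even in library 1 the summed level of the list, 1874 CPM, exceeded the highest URE-AML sum of 128 CPM.

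Stem and early progenitor genes were lower in URE-AML for 15 of 21 tested and higher for 2. Their log2 fold changes had a median of -2.39. The higher count was 1 without URE-AML library 1 or Hox-URE library 2. Cd34, the progenitor sialomucin, measured 0.0404, 0 and 0 CPM in URE-AML and 619.9, 1053 and 1106 CPM in Hox-URE (ratio 62200.3 in favour of Hox-URE, 95% counting interval 11164 to 2456780, adjusted p = 3.98e-09). Adgrg1, also known as GPR56, measured 6.83, 7.09 and 4.21 CPM in URE-AML and 1455, 1578 and 1776 CPM in Hox-URE (log2 fold change -8.05 ± 0.23, adjusted p = 3.65e-09). Hlf, a stem cell transcription factor, measured 12.2, 12.04 and 13.05 CPM in URE-AML and 171, 184 and 153 CPM in Hox-URE (log2 fold change -3.77 ± 0.11, adjusted p = 3.65e-09). Flt3, a receptor of multipotent progenitors, measured 0 CPM in all 3 libraries in URE-AML and 17.0, 14.4 and 11.2 CPM in Hox-URE (at least 99.5-fold lower in URE-AML, adjusted p = 4.31e-07), against 108 ± 16.9 CPM in Hox-WT. Prom1, CD133, was an exception at 4.08, 5.33 and 5.19 CPM in URE-AML and 0, 0 and 0.358 CPM in Hox-URE (log2 fold change 5.51 ± 0.79, adjusted p = 1.79e-04, 4.85 without Hox-URE library 1, 4.92 without Hox-URE library 2 and at least 31.8-fold higher without Hox-URE library 3). Myb, required for progenitor proliferation, was not called at 159, 193 and 179.5 CPM in URE-AML and 151, 180.2 and 171 CPM in Hox-URE, and neither was Erg. Kit, the SCF receptor by which the Hox-URE donor's marrow had been selected, was higher in URE-AML with 98.4, 99.7 and 92.8 CPM in URE-AML and 50.7, 42.9 and 35.5 CPM in Hox-URE (log2 fold change 1.17 ± 0.13, adjusted p = 2.78e-05).

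Lymphoid genes expressed by early progenitors were lower in URE-AML for 8 of 13 tested and higher for 1. On the log2 scale the list's median was -3.15. It was -3.87 without URE-AML library 3 and -6.90 with the 6 libraries alone, where 10 were tested. Thy1, a T cell and progenitor surface protein, measured 0 CPM in all 3 libraries in URE-AML and 181, 483 and 595 CPM in Hox-URE (at least 2941-fold lower in URE-AML, adjusted p = 9.21e-06). Ebf1, a B lineage factor, measured 0, 0.143 and 0.0429 CPM in URE-AML and 33.4, 37.3 and 38.6 CPM in Hox-URE (log2 fold change -9.17 ± 0.33, adjusted p = 1.20e-08, -8.57 without URE-AML library 1 and a ratio of 1736 with a 95% counting interval of 312 to 68587 without URE-AML library 2). Dntt, the terminal transferase of early lymphoid cells, measured 0 CPM in all 3 libraries in URE-AML and 17.1, 36.6 and 42.6 CPM in Hox-URE (at least 225-fold lower in URE-AML, adjusted p = 4.78e-05). Notch1 was the only member of the list higher in URE-AML, at 234, 220.2 and 195 CPM in URE-AML and 15.2, 12.1 and 16.3 CPM in Hox-URE (log2 fold change 3.90 ± 0.13, adjusted p = 8.33e-09). Rag1 and Rag2 were at 0 in both lines, against 44.8 ± 9.62 CPM of Rag2 in Hox-WT, and the T cell marker Cd3e did not pass the filter.

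Megakaryocyte genes were lower for 5 of 9 tested and higher for 2, or 1 without URE-AML library 1 or Hox-URE library 1. Itga2b, the platelet integrin CD41, measured 0.0808, 0.714 and 0.687 CPM in URE-AML and 15.1, 29.8 and 40.3 CPM in Hox-URE (log2 fold change -5.86 ± 0.54, adjusted p = 8.13e-06). F2r, a thrombin receptor, measured 3.84, 3.62 and 2.53 CPM in URE-AML and 173, 485 and 819 CPM in Hox-URE (log2 fold change -7.21 ± 0.56, adjusted p = 2.42e-06). Of the 11 erythroid genes tested 5 were higher and 1 lower. The lower one was Car2, carbonic anhydrase 2, at 0.404, 0.904 and 0.687 CPM in URE-AML and 299, 558 and 697 CPM in Hox-URE (log2 fold change -9.62 ± 0.40, adjusted p = 3.22e-08). Tfrc, the transferrin receptor of all dividing cells, was higher at 429, 464 and 468 CPM in URE-AML and 231, 169 and 169.6 CPM in Hox-URE (log2 fold change 1.26 ± 0.13, adjusted p = 1.54e-05). The hemoglobin transcripts Hba-a2, Hbb-bs and Hbb-bt did not exceed 5.66 CPM in any URE-AML library, were at 0 in Hox-URE and share most of their sequence with a neighbouring copy, so their values are uncertain. Klf1, the erythroid master regulator, was under 0.5 CPM in all 6 libraries.

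Transcription factors of the blood lineages were higher for 20 of 53 tested, lower for 14 and not called for 19. The list's median log2 fold change was 0.20. Cebpe, which drives late granule genes, measured 229.6, 284 and 338 CPM in URE-AML and 5.03, 6.71 and 6.95 CPM in Hox-URE (log2 fold change 5.52 ± 0.21, adjusted p = 1.73e-08), and its Hox-WT level was 53.6 ± 8.82 CPM. Cebpb, a C/EBP factor of emergency granulopoiesis, was higher at 71.0, 28.2 and 63.0 CPM in URE-AML and 18.1, 19.98 and 25.7 CPM in Hox-URE (log2 fold change 1.35 ± 0.30, adjusted p = 0.00326), whereas Cebpd was lower at 25.7, 32.7 and 37.5 CPM in URE-AML and 51.2, 58.4 and 67.5 CPM in Hox-URE (log2 fold change -0.88 ± 0.15, adjusted p = 5.32e-04). Cebpa, the C/EBP of the progenitor stage, measured 361, 418 and 389 CPM in URE-AML and 329, 362 and 324 CPM in Hox-URE and was not called (log2 fold change 0.20 ± 0.09, adjusted p = 0.0724). The C/EBP family members therefore did not move in 1 direction.

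Gata2 measured 6.50, 13.3 and 7.60 CPM in URE-AML and 209, 198 and 244 CPM in Hox-URE (log2 fold change -4.58 ± 0.24, adjusted p = 1.33e-07), and its cofactor gene Zfpm1, encoding FOG-1, measured 3.43, 3.62 and 2.83 CPM in URE-AML and 86.1, 117 and 130.4 CPM in Hox-URE (log2 fold change -5.08 ± 0.18, adjusted p = 1.10e-08). Gata3 was at 0 in URE-AML and at 12.7, 13.2 and 12.6 CPM in Hox-URE (at least 90.0-fold lower in URE-AML, adjusted p = 5.02e-06), and at 0 in Hox-WT as well. Irf8, a PU.1 partner in the monocyte lineage, measured 6.66, 4.04 and 1.76 CPM in URE-AML and 0.182, 0.124 and 0.204 CPM in Hox-URE (log2 fold change 4.58 ± 0.56, adjusted p = 6.49e-05). Tfec, of the MITF family, measured 56.9, 57.5 and 55.5 CPM in URE-AML and 0, 0 and 0.0511 CPM in Hox-URE (ratio 4028 in favour of URE-AML, 95% counting interval 723 to 159081, adjusted p = 4.47e-09). Gfi1, a repressor needed for neutrophil differentiation, rose by 0.91 on the log2 scale (146, 178 and 201 CPM in URE-AML and 103, 82.7 and 95.1 CPM in Hox-URE, adjusted p = 1.55e-04). Runx1, a partner factor of PU.1, and Etv6 were not called.

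Hox genes and their cofactors were lower for 6 of 7 tested and higher for 1. Hoxb8 measured 0 CPM in all 3 libraries in URE-AML and 127, 141 and 128 CPM in Hox-URE (at least 924-fold lower in URE-AML, adjusted p = 3.42e-09), with 65.8 ± 4.07 CPM in Hox-WT. Gene counts cannot separate reads of the Hoxb8-ER transgene from those of the endogenous gene. Meis1, the Hox cofactor, measured 0, 0.0476 and 0.0429 CPM in URE-AML and 5.24, 8.12 and 12.98 CPM in Hox-URE (ratio 288 in favour of Hox-URE, 95% counting interval 79.8 to 2381, adjusted p = 1.45e-06). Pbx3 was lower at 14.2, 17.2 and 13.8 CPM in URE-AML and 30.2, 34.8 and 33.9 CPM in Hox-URE (log2 fold change -1.13 ± 0.12, adjusted p = 1.89e-05) and Pbx2 higher at 54.5, 48.2 and 54.8 CPM in URE-AML and 32.5, 33.5 and 36.3 CPM in Hox-URE (log2 fold change 0.62 ± 0.09, adjusted p = 2.25e-04). Hoxa9 and the other genes of the Hoxa cluster on the list did not pass the filter.

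Growth factor and cytokine receptors changed in both directions, with 11 of 37 higher, 12 lower and 14 not called and a median of 0.00. Receptors for the cytokines in the medium were among them. Il3ra, the IL-3 receptor alpha chain, measured 38.1, 38.0 and 37.3 CPM in URE-AML and 87.5, 107 and 133 CPM in Hox-URE (log2 fold change -1.53 ± 0.19, adjusted p = 7.09e-05). Csf2rb, the beta chain shared by the IL-3, IL-5 and GM-CSF receptors, measured 584, 513 and 402 CPM in URE-AML and 1869.6, 1969 and 2016 CPM in Hox-URE (log2 fold change -1.97 ± 0.13, adjusted p = 9.40e-07). Csf2rb2, the mouse-specific IL-3 beta chain, measured 19.5, 25.2 and 18.2 CPM in URE-AML and 64.8, 372 and 675 CPM in Hox-URE (log2 fold change -4.14 ± 0.66, adjusted p = 3.89e-04, -3.38 without Hox-URE library 3), although 28.6% of its 31-base words also occur in Csf2rb, so the split of reads between them is uncertain. The IL-6 receptor gene Il6ra was near the floor in Hox-URE and low in URE-AML at 2.75, 2.05 and 1.97 CPM in URE-AML and 0.0364, 0 and 0.0511 CPM in Hox-URE (ratio 80.9 in favour of URE-AML, 95% counting interval 22.4 to 668, adjusted p = 3.38e-06). Together with the higher Kit level, the leukemic line thus had less transcript for IL-3 receptor chains and more for the SCF receptor.

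Ifngr1, the ligand-binding chain of the interferon gamma receptor, measured 335, 373 and 390.3 CPM in URE-AML and 16.7, 17.7 and 13.9 CPM in Hox-URE (log2 fold change 4.50 ± 0.13, adjusted p = 3.50e-09). Igf1r, the IGF1 receptor, measured 175, 179.5 and 214 CPM in URE-AML and 53.6, 42.4 and 41.2 CPM in Hox-URE (log2 fold change 2.05 ± 0.15, adjusted p = 1.36e-06). Tnfrsf1a, a TNF receptor, measured 168, 171 and 163 CPM in URE-AML and 62.3, 55.9 and 49.3 CPM in Hox-URE (log2 fold change 1.59 ± 0.09, adjusted p = 3.37e-07). Il1r1, the IL-1 receptor, was lower at 1.05, 1.14 and 0.730 CPM in URE-AML and 50.04, 60.1 and 36.0 CPM in Hox-URE (log2 fold change -5.64 ± 0.25, adjusted p = 4.79e-08). Axl, a TAM receptor kinase, was at 0 in URE-AML and at 3.71, 5.93 and 9.91 CPM in Hox-URE (at least 45.7-fold lower in URE-AML, adjusted p = 2.05e-05).

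Secreted factors were higher for 11 of 30 tested and lower for 10. Hgf, hepatocyte growth factor, was one of the 12 lower genes with the smallest p at 0.0808, 0.0476 and 0.0429 CPM in URE-AML and 384, 494 and 568 CPM in Hox-URE (log2 fold change -12.90 ± 0.28, adjusted p = 7.79e-10), while its receptor gene Met had 3 counts in Hox-URE and none in URE-AML. Ccl9, a myeloid chemokine, measured 11.3, 12.5 and 8.37 CPM in URE-AML and 1029, 1562 and 1611 CPM in Hox-URE (log2 fold change -7.03 ± 0.28, adjusted p = 2.00e-08). Tgfb1 measured 470.4, 479 and 416 CPM in URE-AML and 1463, 1242 and 1165 CPM in Hox-URE (log2 fold change -1.503 ± 0.11, adjusted p = 1.51e-06). Angpt1, a niche factor for stem cells, measured 5.41, 6.47 and 5.88 CPM in URE-AML and 157, 228 and 235 CPM in Hox-URE (log2 fold change -5.13 ± 0.21, adjusted p = 2.35e-08). Kitl, the ligand of Kit, measured 1.25, 0.238 and 0.0858 CPM in URE-AML and 13.2, 9.66 and 7.05 CPM in Hox-URE (log2 fold change -4.202 ± 0.71, adjusted p = 0.00118, -5.93 without URE-AML library 1), so receptor and ligand transcripts of this pair went in opposite directions.

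Among the factors higher in URE-AML, Csf1, macrophage colony-stimulating factor, measured 65.1, 32.0 and 27.0 CPM in URE-AML and 9.65, 10.5 and 10.9 CPM in Hox-URE (log2 fold change 1.9995 ± 0.32, adjusted p = 3.80e-04). Cxcl10, an interferon-induced chemokine, measured 17.8, 10.8 and 10.2 CPM in URE-AML and 0.146, 0 and 0.102 CPM in Hox-URE (log2 fold change 7.18 ± 0.60, adjusted p = 3.84e-06, a ratio of 286 with a 95% counting interval of 79.1 to 2358 without Hox-URE library 1). Ccl6 measured 92.8, 141 and 157 CPM in URE-AML and 1.60, 3.98 and 11.9 CPM in Hox-URE (log2 fold change 4.53 ± 0.57, adjusted p = 7.58e-05, 5.56 without Hox-URE library 3). Spp1, osteopontin, measured 1876, 619 and 346 CPM in URE-AML and 346, 274 and 171 CPM in Hox-URE (log2 fold change 1.85 ± 0.51, adjusted p = 0.0108, 0.87 without URE-AML library 1), with the lowest URE-AML library equal to the highest Hox-URE library within rounding. Csf2, Il3 and Csf3 did not pass the filter.

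**Figure D3:**
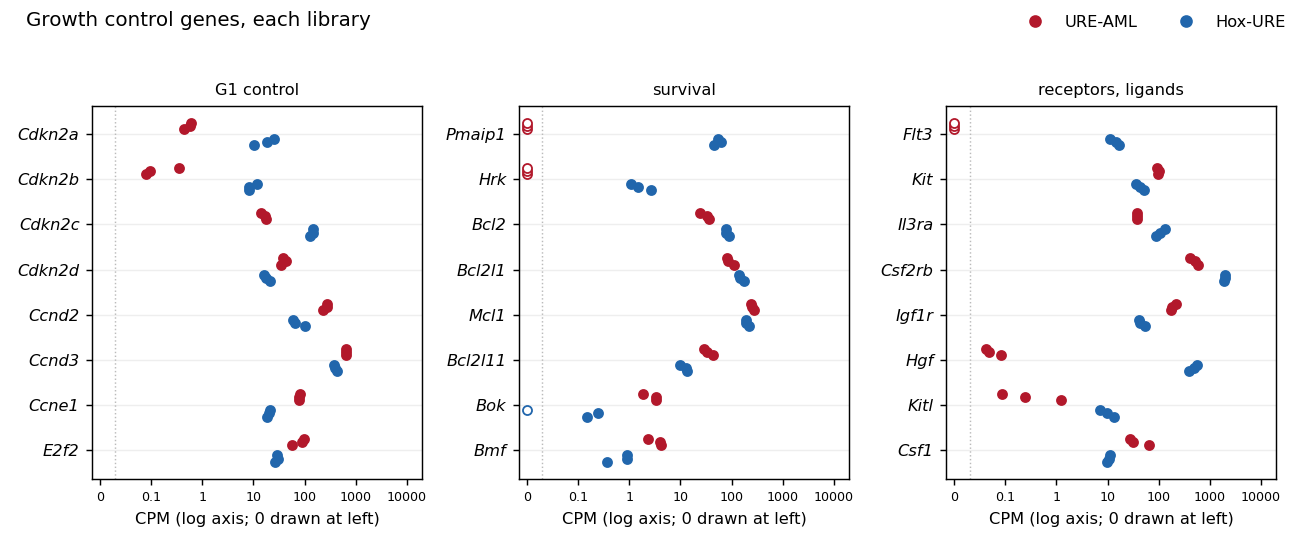
CPM of each URE-AML (red) and Hox-URE (blue) library on a log axis for G1 control, survival, and receptor and ligand genes, with open points for libraries at 0. Cdkn2a, Cdkn2b and Cdkn2c lie lower in every URE-AML library, Pmaip1 and Hrk are at 0 there, and Mcl1 differs little between the lines.

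Signalling lists held more lower than higher genes, but only the RAS-MAPK list, at 56.1%, was called beyond the background of 42.7%. For the RAS-MAPK pathway and its feedback genes 16 of 41 were lower and 7 higher. Their log2 fold changes had a median of -0.48. Lower members included the feedback inhibitors and targets Spry1 (10.2, 9.66 and 9.36 CPM in URE-AML and 47.6, 49.7 and 47.7 CPM in Hox-URE, log2 fold change -2.31 ± 0.11, adjusted p = 5.49e-08), Dusp6 (70.3, 52.4 and 57.7 CPM in URE-AML and 136, 124 and 106 CPM in Hox-URE, log2 fold change -1.02 ± 0.16, adjusted p = 3.09e-04), Dusp4 (-2.24), Etv4 (-3.37) and Etv5 (-1.57) on the log2 scale. Phlda1 was higher (2.36). Of the kinases themselves, Braf was higher at 28.5, 28.0 and 22.7 CPM in URE-AML and 13.4, 12.6 and 10.4 CPM in Hox-URE (log2 fold change 1.12 ± 0.14, adjusted p = 8.21e-05), and Map2k1 and Mapk3 were higher by 0.81 and 0.98. Grb2, the adaptor that links receptors to RAS, was lower at 78.8, 72.1 and 91.8 CPM in URE-AML and 255, 267 and 278 CPM in Hox-URE (log2 fold change -1.72 ± 0.10, adjusted p = 3.05e-07).

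In the JAK-STAT list 10 of 34 genes were lower and 4 higher, or 7 higher without Hox-URE library 3. The share called, 41.2%, was near the background, and the list's median log2 fold change was 0.054. Stat5a measured 11.7, 10.99 and 13.1 CPM in URE-AML and 23.7, 37.4 and 39.3 CPM in Hox-URE (log2 fold change -1.49 ± 0.18, adjusted p = 5.34e-05), and Stat5b and Jak2 were lower by log2 fold changes of -0.92 and -0.90. Socs2, a STAT5 target and feedback inhibitor, was lower (-1.17), and Socs3, a feedback inhibitor of STAT3 signalling, was higher at 184, 174 and 149 CPM in URE-AML and 114, 73.5 and 73.7 CPM in Hox-URE (log2 fold change 0.96 ± 0.16, adjusted p = 6.06e-04). In the PI3K-AKT list 7 of 33 were lower and 3 higher, shares under or near the background. Foxo3, a factor restrained by AKT, was lower at 38.1, 48.9 and 37.9 CPM in URE-AML and 151, 148 and 137 CPM in Hox-URE (log2 fold change -1.80 ± 0.11, adjusted p = 3.81e-07). Pik3r6, a PI3Kγ subunit, was at 0 in URE-AML (at least 14.8-fold lower in URE-AML, adjusted p = 4.95e-05).

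G1 control genes were called in a share under the background (38.5% against 42.7%), with 7 of 26 higher and 3 lower. The 3 lower genes were Cdkn2a, Cdkn2b and Cdkn2c, of the INK4 family of CDK4 and CDK6 inhibitors. Cdkn2a, which encodes p16INK4A and p19ARF, measured 0.444, 0.571 and 0.601 CPM in URE-AML and 10.1, 18.5 and 25.4 CPM in Hox-URE (log2 fold change -5.05 ± 0.39, adjusted p = 2.10e-06). Its neighbour Cdkn2b, p15INK4B, measured 0.0808, 0.0951 and 0.343 CPM in URE-AML and 8.27, 8.12 and 11.6 CPM in Hox-URE (log2 fold change -5.71 ± 0.44, adjusted p = 2.29e-06, -6.65 without URE-AML library 3). Cdkn2c, p18INK4C, measured 17.4, 16.9 and 14.3 CPM in URE-AML and 127, 149 and 146 CPM in Hox-URE (log2 fold change -3.12 ± 0.15, adjusted p = 8.69e-08). The fourth member of the family, Cdkn2d, went the other way at 34.3, 43.9 and 38.5 CPM in URE-AML and 20.6, 17.5 and 16.1 CPM in Hox-URE (log2 fold change 1.10 ± 0.13, adjusted p = 5.38e-05). Hox-WT held 10.8 ± 1.86 CPM of Cdkn2a and 0.216 ± 0.0426 CPM of Cdkn2b.

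Among the higher genes of the list, Ccne1, cyclin E1, measured 77.0, 79.2 and 79.6 CPM in URE-AML and 18.6, 20.2 and 20.998 CPM in Hox-URE (log2 fold change 1.98 ± 0.10, adjusted p = 7.91e-08). Ccnd2, cyclin D2, measured 228, 277 and 276 CPM in URE-AML and 101, 65.7 and 58.9 CPM in Hox-URE (log2 fold change 1.79 ± 0.19, adjusted p = 2.03e-05). Ccnd3 and E2f2 were higher by 0.70 and 1.496. Of 35 replication and mitosis genes 10 were higher and 2 lower. On the log2 scale the list's median was 0.42. Top2a measured 521, 464 and 577 CPM in URE-AML and 194, 248 and 293 CPM in Hox-URE (log2 fold change 1.09 ± 0.15, adjusted p = 1.37e-04), and Aurka rose by 1.05 on the log2 scale. Ccnb1 and the replication helicase subunit Mcm6 were the 2 lower genes at -0.99 and -0.76. The MYC network was mostly not called (16 of 23), with Mycn at 0 CPM in all 3 libraries in URE-AML and 4.52, 9.90 and 11.3 CPM in Hox-URE (at least 60.1-fold lower in URE-AML, adjusted p = 1.99e-05).

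Genes of p53 and its targets were lower for 10 of 28 tested and higher for 5. Trp53 itself measured 152, 146 and 141 CPM in URE-AML and 128, 133 and 135 CPM in Hox-URE and was not called (log2 fold change 0.15 ± 0.07, adjusted p = 0.103). Pmaip1, encoding NOXA, measured 0 CPM in all 3 libraries in URE-AML and 45.6, 63.1 and 54.6 CPM in Hox-URE (at least 381-fold lower in URE-AML, adjusted p = 1.32e-07), against 15.5 ± 3.604 CPM in Hox-WT. Perp measured 35.8, 38.1 and 27.8 CPM in URE-AML and 533, 701 and 735 CPM in Hox-URE (log2 fold change -4.27 ± 0.20, adjusted p = 5.46e-08), and Trp53inp1 and Rrm2b were lower by -3.06 and -1.40. Tnfrsf10b, the TRAIL receptor, was higher at 7.96, 7.04 and 11.6 CPM in URE-AML and 0.0364, 0.166 and 0.0511 CPM in Hox-URE (log2 fold change 6.63 ± 0.44, adjusted p = 7.05e-07, a ratio of 209 with a 95% counting interval of 58.0 to 1729 without Hox-URE library 2), as was Fas (3.11).

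Among the BCL2 family 3 of 17 were higher and 5 lower, a share called of 47.1% that was near the background of 42.7%. The survival genes Bcl2 (35.8, 32.9 and 23.9 CPM in URE-AML and 89.1, 75.9 and 76.3 CPM in Hox-URE, log2 fold change -1.38 ± 0.17, adjusted p = 6.41e-05) and Bcl2l1 (110.0, 86.2 and 79.6 CPM in URE-AML and 171, 143 and 139 CPM in Hox-URE, log2 fold change -0.72 ± 0.13, adjusted p = 9.22e-04) were lower in URE-AML, as were the pro-death genes Pmaip1 and Hrk (at least 12.1-fold lower in URE-AML, adjusted p = 7.60e-05). Bcl2l11, encoding BIM, was higher at 43.4, 33.0 and 28.8 CPM in URE-AML and 13.1, 12.7 and 9.91 CPM in Hox-URE (log2 fold change 1.55 ± 0.17, adjusted p = 3.30e-05), and so were Bmf and Bok. Mcl1 was not called at 274, 249 and 239 CPM in URE-AML and 221, 191 and 195 CPM in Hox-URE. Called pro-death members thus appeared on both sides, while of the survival genes Bcl2 and Bcl2l1 were lower and Mcl1 was not called.

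Autophagy genes, of interest because the study examined autophagy in the preleukemic line, were lower for 16 of 50 tested and higher for 6. The list's median log2 fold change was -0.28. Among the lower genes, Sqstm1, the autophagy receptor p62, measured 164, 180.4 and 189 CPM in URE-AML and 1227, 577 and 681 CPM in Hox-URE (log2 fold change -2.22 ± 0.24, adjusted p = 2.69e-05). Optn measured 6.10, 8.37 and 11.7 CPM in URE-AML and 59.5, 96.7 and 96.4 CPM in Hox-URE (log2 fold change -3.27 ± 0.26, adjusted p = 3.18e-06), and Tax1bp1 and Nbr1 were lower by -1.46 and -0.90. Gabarapl1, an ATG8 family member, measured 38.5, 32.4 and 35.7 CPM in URE-AML and 107, 132 and 163 CPM in Hox-URE (log2 fold change -1.91 ± 0.15, adjusted p = 2.75e-06). Vamp8, a SNARE of autophagosome fusion, measured 55.7, 60.2 and 71.3 CPM in URE-AML and 402, 512 and 527 CPM in Hox-URE (log2 fold change -2.94 ± 0.14, adjusted p = 6.51e-08). Bnip3, a mitophagy receptor, was higher at 44.1, 53.3 and 30.2 CPM in URE-AML and 12.2, 13.1 and 14.97 CPM in Hox-URE (log2 fold change 1.67 ± 0.19, adjusted p = 3.48e-05), as were Atg9a, Stx17 and the lysosomal regulator Tfeb by 0.65, 1.12 and 0.89.

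Lysosome genes were split, with 8 of 47 higher and 12 lower, although 4 were higher without Hox-URE library 1 and 5 without URE-AML library 3. Ctse, cathepsin E, measured 40.7, 94.3 and 80.3 CPM in URE-AML and 0, 0.207 and 0.153 CPM in Hox-URE (log2 fold change 9.25 ± 0.55, adjusted p = 3.29e-07, 8.57 without Hox-URE library 1 and a ratio of 1104 with a 95% counting interval of 378 to 5351 without Hox-URE library 2). Gm2a, the GM2 activator, measured 0.202, 0.0951 and 0.257 CPM in URE-AML and 80.6, 264 and 395 CPM in Hox-URE (log2 fold change -10.32 ± 0.95, adjusted p = 8.17e-06). The study gave examples of genes whose loss preferentially inhibited growth, drawn from a signature of URE-deleted stem cells and screened in these same lines. They are therefore no independent evidence of a direction. Of the 17 tested, 11 were lower and 1 was higher. The higher gene, Tns1, lost its call without either of URE-AML libraries 1 and 2 and either of Hox-URE libraries 1 and 2. Vmp1, an endoplasmic reticulum protein of autophagosome formation, was one of them at 87.7, 81.9 and 92.3 CPM in URE-AML and 162, 131 and 134 CPM in Hox-URE (log2 fold change -0.70 ± 0.11, adjusted p = 3.69e-04), and Rora, a nuclear receptor, another at 0, 0.0476 and 0 CPM in URE-AML and 4.22, 4.10 and 2.04 CPM in Hox-URE (ratio 248 in favour of Hox-URE, 95% counting interval 44.4 to 9778, adjusted p = 6.29e-05).

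Antigen presentation genes and natural killer ligands were lower in URE-AML for 20 of 34 tested and higher for 6. Their log2 fold changes had a median of -1.53. The 6 higher genes included the natural killer ligand Raet1d (at least 8.34-fold higher in URE-AML, or 5.27-fold without URE-AML library 1). Its value is uncertain, since 67.1% of its 31-base words also occur in Raet1e. The classical class I genes H2-K1 (174, 207 and 209 CPM in URE-AML and 615, 758 and 1029.5 CPM in Hox-URE, log2 fold change -2.02 ± 0.29, adjusted p = 1.66e-04) and H2-D1 (267, 250.5 and 303 CPM in URE-AML and 709, 792 and 1051 CPM in Hox-URE, log2 fold change -1.64 ± 0.25, adjusted p = 3.21e-04) were lower without overlap. So was B2m, the class I light chain, at 155, 112 and 145 CPM in URE-AML and 253, 555 and 790.1 CPM in Hox-URE (log2 fold change -1.95 ± 0.40, adjusted p = 0.00181). Nlrc5, the class I transactivator, measured 5.65, 4.28 and 4.33 CPM in URE-AML and 38.7, 48.4 and 36.3 CPM in Hox-URE (log2 fold change -3.11 ± 0.17, adjusted p = 1.61e-07), and the peptide transporter Tap1 measured 76.0, 91.2 and 87.8 CPM in URE-AML and 249, 226 and 211 CPM in Hox-URE (log2 fold change -1.43 ± 0.11, adjusted p = 2.99e-06). Class I genes share sequence, and for H2-K1 and H2-D1 77.2% and 73.3% of 31-base words were found in no other gene, so values for this family are uncertain where reads could be assigned to a relative.

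Of the class II genes, H2-Ab1 measured 0 CPM in all 3 libraries in URE-AML and 30.4, 30.8 and 23.7 CPM in Hox-URE (at least 198-fold lower in URE-AML, adjusted p = 3.03e-06), H2-DMa, which loads class II peptides, was lower by a log2 fold change of -4.43, and H2-Aa, H2-Eb1 and Cd74 did not pass the filter. Vsir, the checkpoint protein VISTA, was higher at 138, 182 and 182 CPM in URE-AML and 12.8, 16.4 and 12.8 CPM in Hox-URE (log2 fold change 3.58 ± 0.17, adjusted p = 7.04e-08). Psmb8 and Psmb9 of the immunoproteasome were lower by -1.13 and -1.70 and Psmb10 higher by 0.95. Interferon-stimulated genes did not move together, with 10 of 28 higher and 7 lower. Usp18 measured 0.162, 0.0951 and 0.215 CPM in URE-AML and 8.01, 7.63 and 7.25 CPM in Hox-URE (log2 fold change -5.54 ± 0.33, adjusted p = 3.19e-07), Ifitm3 was lower at -2.18 and Xaf1 higher at 3.56.

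Adhesion and homing genes were called in nearly every case, with 19 of 35 higher in URE-AML, 11 lower and 5 not called. Vcam1, the ligand of the integrin VLA-4, measured 188, 382 and 492 CPM in URE-AML and 0.0364, 0 and 0 CPM in Hox-URE (ratio 24873 in favour of URE-AML, 95% counting interval 4464 to 982440, adjusted p = 5.19e-08), while Itga4, the alpha chain of VLA-4, was lower at 30.4, 45.9 and 40.9 CPM in URE-AML and 175, 241 and 219 CPM in Hox-URE (log2 fold change -2.44 ± 0.17, adjusted p = 1.12e-06). Cxcr4, the receptor that holds cells in marrow, was higher at 91.4, 89.6 and 131 CPM in URE-AML and 34.2, 38.1 and 43.4 CPM in Hox-URE (log2 fold change 1.43 ± 0.17, adjusted p = 6.14e-05), and its ligand gene Cxcl12 was detected in Hox-URE alone of the 3 lines at 2.37, 3.56 and 6.999 CPM (at least 30.2-fold lower in URE-AML, adjusted p = 3.57e-04). Mmp14, a membrane metalloproteinase, measured 0, 0.0951 and 0.0429 CPM in URE-AML and 118, 152 and 177 CPM in Hox-URE (ratio 3356 in favour of Hox-URE, 95% counting interval 1148 to 16272, adjusted p = 1.51e-08). Ccr1 was higher at 273, 251 and 265 CPM in URE-AML and 47.8, 45.7 and 36.3 CPM in Hox-URE (log2 fold change 2.60 ± 0.19, adjusted p = 1.39e-06).

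Serine, one-carbon and amino acid response genes included no higher gene, with 19 of 26 lower in URE-AML and a median of -1.13. Psat1, of serine synthesis, measured 251, 209.9 and 204 CPM in URE-AML and 817, 698 and 709 CPM in Hox-URE (log2 fold change -1.74 ± 0.11, adjusted p = 7.15e-07). Asns, asparagine synthetase, measured 33.6, 49.05 and 49.5 CPM in URE-AML and 348, 184 and 178 CPM in Hox-URE (log2 fold change -2.42 ± 0.26, adjusted p = 2.62e-05). Slc1a5, a glutamine transporter, measured 88.0, 89.8 and 98.7 CPM in URE-AML and 498, 312 and 296 CPM in Hox-URE (log2 fold change -2.001 ± 0.18, adjusted p = 7.71e-06). Hox-URE library 1 was the highest of its line for most of these genes, for instance Trib3 at 111, 27.2 and 16.7 CPM against 13.7, 13.4 and 9.18 CPM in URE-AML (log2 fold change -2.10 ± 0.59, adjusted p = 0.0108, -0.87 without Hox-URE library 1). Without that library 16 genes were lower and 1 higher, and without URE-AML library 1 there was also 1 higher. The list overlaps the ATF4 response, and Atf4 itself measured 150.5, 191 and 150.2 CPM in URE-AML and 394, 229 and 178 CPM in Hox-URE (log2 fold change -0.71 ± 0.25, adjusted p = 0.0304), where URE-AML library 2 exceeded Hox-URE library 3 and the call was lost without URE-AML library 1 (adjusted p = 0.0922), URE-AML library 3 (0.0926) or Hox-URE library 1 (0.0850).

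Glycolysis and pentose phosphate enzymes were higher for 10 of 30 and lower for 4. Gpi1 measured 2588, 3602 and 3888 CPM in URE-AML and 966, 1193 and 1191 CPM in Hox-URE (log2 fold change 1.59 ± 0.16, adjusted p = 1.37e-05). Ldha measured 2005, 1831 and 1821 CPM in URE-AML and 1311, 1072 and 1010.1 CPM in Hox-URE (log2 fold change 0.74 ± 0.12, adjusted p = 4.46e-04). Slc2a3, the high-affinity glucose transporter GLUT3, was lower at 0.162, 0.476 and 0.300 CPM in URE-AML and 62.7, 90.6 and 105 CPM in Hox-URE (log2 fold change -8.12 ± 0.32, adjusted p = 2.00e-08). Of 37 cholesterol and fatty acid genes 11 were higher, among them Mvk (1.67) and Mvd (1.23) of the mevalonate pathway, and 7 were lower, among them Elovl6, a fatty acid elongase, at 0, 0.0951 and 0 CPM in URE-AML and 47.8, 78.0 and 60.6 CPM in Hox-URE (ratio 2127 in favour of Hox-URE, 95% counting interval 589 to 17559.6, adjusted p = 3.71e-08), and Acss2 at -4.005.

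Antioxidant and glutathione genes numbered 7 higher and 9 lower of 32. Mgst1, a microsomal glutathione transferase, measured 357, 277 and 302 CPM in URE-AML and 0.0728, 0.373 and 0.307 CPM in Hox-URE (log2 fold change 10.32 ± 0.41, adjusted p = 2.19e-08). Gsr, glutathione reductase, measured 99.8, 106 and 149.6 CPM in URE-AML and 16.5, 20.9 and 17.5 CPM in Hox-URE (log2 fold change 2.69 ± 0.18, adjusted p = 7.15e-07). The ferritin chains Fth1 and Ftl1 were lower by -1.04 and -1.04, while Tfrc was higher as given above. Of 13 mitochondrially encoded genes only mt-Nd1 was called, lower in URE-AML (log2 fold change -0.70 ± 0.27, adjusted p = 0.0498), but this count rested on single libraries: it was 8 without URE-AML library 2, 5 without Hox-URE library 3 and 0 without URE-AML library 1 or Hox-URE library 2.

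Genes recurrently mutated in human AML were mostly not called (30 of 45), with 8 higher and 7 lower, under the background in both directions. Ptpn11, the phosphatase SHP2, was higher at 162, 171 and 142 CPM in URE-AML and 87.7, 88.0 and 72.9 CPM in Hox-URE (log2 fold change 0.93 ± 0.11, adjusted p = 3.57e-05). Kmt2a, the MLL methyltransferase, was lower at 10.6, 12.99 and 14.7 CPM in URE-AML and 28.2, 23.9 and 20.3 CPM in Hox-URE (log2 fold change -0.92 ± 0.17, adjusted p = 8.39e-04). Expression says nothing of mutations. DNA methylation and Polycomb genes were called near the background, with 9 of 40 higher and 11 lower. Cbx2 and Cbx6, chromobox proteins of Polycomb complexes, were lower by -2.15 and -2.78, and Bmi1 was higher at 54.8, 60.3 and 57.8 CPM in URE-AML and 31.7, 25.9 and 21.6 CPM in Hox-URE (log2 fold change 1.12 ± 0.13, adjusted p = 4.83e-05). Of 12 oncofetal and imprinted genes 3 were higher and 5 lower. Hmga2, a fetal stem cell regulator, measured 0 CPM in all 3 libraries in URE-AML and 8.96, 10.9 and 11.6 CPM in Hox-URE (at least 73.5-fold lower in URE-AML, adjusted p = 1.45e-07). Peg10 measured 13.1, 9.70 and 9.48 CPM in URE-AML and 0 CPM in all 3 libraries in Hox-URE (at least 70.3-fold higher in URE-AML, adjusted p = 1.39e-05).

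The largest folds among abundant genes added secreted and surface proteins outside these lists. Olfm4, a secondary granule glycoprotein, measured 428, 961 and 1668 CPM in URE-AML and 0 CPM in all 3 libraries in Hox-URE (at least 6647-fold higher in URE-AML, adjusted p = 3.33e-06). Igfbp4, an IGF-binding protein, measured 1033, 570.1 and 637 CPM in URE-AML and 0 CPM in all 3 libraries in Hox-URE (at least 4872-fold higher in URE-AML, adjusted p = 6.88e-08). Car4, a membrane carbonic anhydrase, measured 901, 1122 and 1568 CPM in URE-AML and 0, 0 and 0.102 CPM in Hox-URE (ratio 42451 in favour of URE-AML, 95% counting interval 11752 to 350531, adjusted p = 6.86e-08). Igfbp4 stood at 667 ± 71.4 CPM in Hox-WT, near the leukemic level. In the other direction Dkk1, a WNT antagonist, measured 0 CPM in all 3 libraries in URE-AML and 66.5, 99.8 and 109 CPM in Hox-URE (at least 642-fold lower in URE-AML, adjusted p = 2.68e-06). Wnt2 measured 0 CPM in all 3 libraries in URE-AML and 70.6, 106 and 127 CPM in Hox-URE (at least 710.3-fold lower in URE-AML, adjusted p = 4.19e-06), both at 0 in Hox-WT. Syt9, a synaptotagmin of secretory vesicles, measured 0 CPM in all 3 libraries in URE-AML and 106, 153 and 139 CPM in Hox-URE (at least 930.2-fold lower in URE-AML, adjusted p = 7.90e-07).

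Among the protein-coding genes with the smallest p-values were others outside the lists. S100a11, a calcium-binding protein, measured 313, 301 and 353 CPM in URE-AML and 0.182, 0.124 and 0.255 CPM in Hox-URE (log2 fold change 10.74 ± 0.23, adjusted p = 7.79e-10). Card9, an adaptor of fungal recognition, measured 46.3, 47.7 and 59.1 CPM in URE-AML and 0.692, 0.912 and 0.869 CPM in Hox-URE (log2 fold change 5.96 ± 0.18, adjusted p = 3.98e-09). On the lower side Bace1, a membrane protease, measured 0.202, 0.238 and 0.129 CPM in URE-AML and 135, 136 and 113 CPM in Hox-URE (log2 fold change -9.37 ± 0.18, adjusted p = 4.89e-10). Lamc1, laminin gamma 1, measured 1.09, 0.951 and 0.858 CPM in URE-AML and 407, 417 and 429 CPM in Hox-URE (log2 fold change -8.74 ± 0.19, adjusted p = 7.87e-10). Rgs18, a regulator of G protein signalling in myeloid cells and platelets, measured 1.45, 2.14 and 2.10 CPM in URE-AML and 125, 128 and 119.8 CPM in Hox-URE (log2 fold change -6.04 ± 0.15, adjusted p = 1.54e-09).

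Protein-coding genes used by 1 line alone were similar in number on both sides. A gene was counted as silent with at most 3 counts in each library of a line and at least 10 CPM in each library of the other. By that rule 89 genes were silent in URE-AML, 53 of them with no count in any library, and 88 were silent in Hox-URE, 43 with no count. Their Hox-WT levels differed: 39 of the 89 genes silent in URE-AML reached 10 CPM in Hox-WT and 39 lay under 1 CPM, whereas of the 88 silent in Hox-URE 12 reached 10 CPM and 63 lay under 1 CPM. These 2 comparisons share Hox-WT as reference.

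The only run of 3 or more neighbouring silent genes was on the Y chromosome and comprised Kdm5d, Eif2s3y, Uty and Ddx3y. Ddx3y measured 0 CPM in all 3 libraries in URE-AML and 48.0, 35.1 and 33.0 CPM in Hox-URE (at least 271-fold lower in URE-AML, adjusted p = 2.70e-06). Xist, the RNA of X inactivation, measured 27.1, 44.1 and 15.4 CPM in URE-AML and 0 CPM in all 3 libraries in Hox-URE (at least 188-fold higher in URE-AML, adjusted p = 5.59e-06). Hox-WT resembled URE-AML, with 24.8 ± 2.16 CPM of Xist and none of Ddx3y. The X-linked partners of 2 Y genes, Kdm5c and Eif2s3x, were higher in URE-AML by 0.84 and 1.11. Hox-URE therefore differed from the other lines in sex-linked transcripts, which cannot be told apart from the leukemic comparison. Without genes of the X and Y chromosomes 5422 genes were called, 2578 higher and 2844 lower.

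Differences were unevenly spread over the genome (GRCm38). Tested genes of chromosome 15 had a median log2 fold change of -0.39, with 63 of 511 called higher and 182 lower (35.6%), and those of chromosome 5 had a median of 0.23, with 259 of 828 higher (31.3%) and 133 lower. Set against Hox-WT, chromosome 15 had a median of 0.33 in Hox-URE and -0.00045 in URE-AML, and chromosome 5 had a median of 0.18 in URE-AML and -0.060 in Hox-URE. In 250 windows of 50 neighbouring tested genes the central 80% of medians lay between -0.27 and 0.27. The highest window, 1.00 on the log2 scale with 29 of 50 genes called higher, was chr4:143267431-148557683 beginning at Pdpn, and the next was 0.75 at chr5:128984557-135251230. The lowest, at -0.69 with 26 of 50 lower, was chr15:99778470-102672352. Copy number was not measured, and its part in these medians was not tested.

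**Figure D4:**
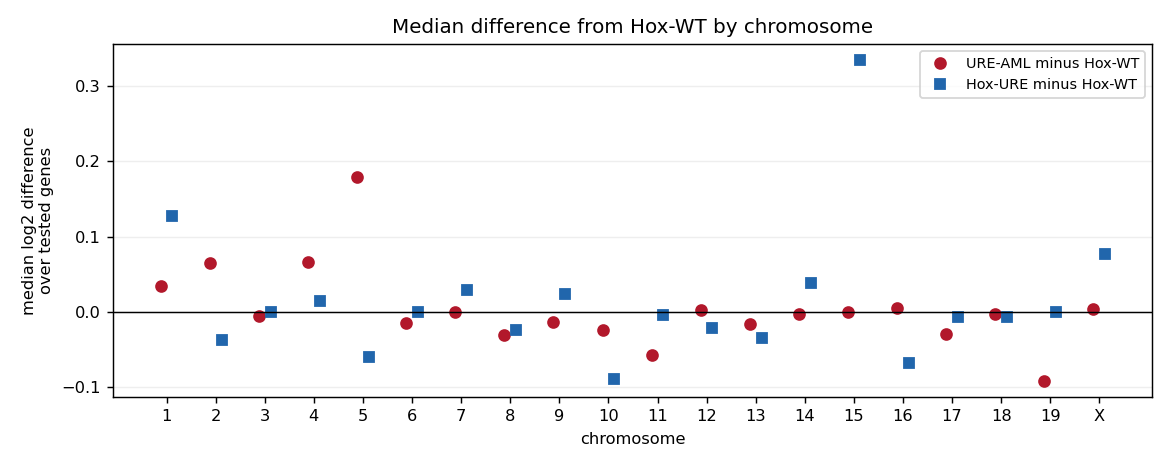
Median log2 difference from Hox-WT over the tested genes of each autosome and the X chromosome for URE-AML (red circles) and Hox-URE (blue squares); the libraries of Hox-WT are shared by both. Among the autosomes, chromosome 15 lies highest in Hox-URE at 0.33 and chromosome 5 in URE-AML at 0.18.

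Pseudogenes were called mostly in 1 direction, with 164 of 552 tested higher in URE-AML and 62 lower. The 8 with the smallest p were all higher in URE-AML and at means of at most 4.39 CPM in both Hox lines, and the coding genes closest in sequence, 6 in all because Rplp0 is closest to 3 of the pseudogenes, were called lower. Rps3a3 measured 623, 537 and 612 CPM in URE-AML and 0.255, 0.414 and 0.307 CPM in Hox-URE, and Rps3a1, the ribosomal protein gene it resembles at 98.9% of bases, measured 519.6, 417 and 473 CPM in URE-AML and 2339, 2271 and 2496 CPM in Hox-URE (log2 fold change -2.33 ± 0.11, adjusted p = 7.04e-08). Rps3a3 accounted for 54.5% to 56.4% of the pair's counts in URE-AML and for 0.011% to 0.018% in Hox-URE. Gm8730 measured 875, 874 and 892 CPM in URE-AML and 0.146, 0.332 and 0.307 CPM in Hox-URE, and Rplp0, at 98.7% identity, measured 1632, 1595 and 1534 CPM in URE-AML and 3487, 3912 and 4002 CPM in Hox-URE (log2 fold change -1.26 ± 0.11, adjusted p = 4.53e-06).

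The summed level of Rps3a3 and Rps3a1 was 1061 ± 96.6 CPM in URE-AML and 2369 ± 115 CPM in Hox-URE, and the mean sum was lower in URE-AML for 7 of the 8 pairs, 3 of which share Rplp0. Capza1-ps1 with Capza1 went the other way, at 415 ± 15.5 against 364 ± 9.55 CPM, and Gm3375 with Psmb5 differed by less than the Hox-URE SD, at 333 ± 14.8 against 400.3 ± 76.1 CPM. The 2 stretches below, from GENCODE M21 transcripts, show how few bases decide to which copy a read is assigned. Each pair is the same 60 bases of the transcripts, 5′ to 3′, with differing bases in capitals.
Rps3a3: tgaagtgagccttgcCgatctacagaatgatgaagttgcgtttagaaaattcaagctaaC
Rps3a1: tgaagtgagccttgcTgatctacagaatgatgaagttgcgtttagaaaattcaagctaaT
Gm8730: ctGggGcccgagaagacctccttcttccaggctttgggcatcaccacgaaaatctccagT
Rplp0: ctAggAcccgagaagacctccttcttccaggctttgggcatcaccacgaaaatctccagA

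Of the 31-base words of Rps3a3 21.6% occur in no other transcript, of Gm8730 11.7%, and of Rpl34-ps1 0%. Gm4737 followed the same pattern at 303, 281 and 303 CPM in URE-AML and 0 CPM in all 3 libraries in Hox-URE (at least 1928-fold higher in URE-AML, adjusted p = 4.91e-08), and shares 93.2% of its words with Ahcy, adenosylhomocysteinase, which measured 9.13, 7.14 and 6.99 CPM in URE-AML and 220.0, 278 and 290.5 CPM in Hox-URE (log2 fold change -5.08 ± 0.17, adjusted p = 7.61e-09). Values of these pseudogenes and of their coding relatives are uncertain for this reason, and whether the pseudogenes are transcribed or the reads stem from the coding genes was not tested.

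**Figure D5:**
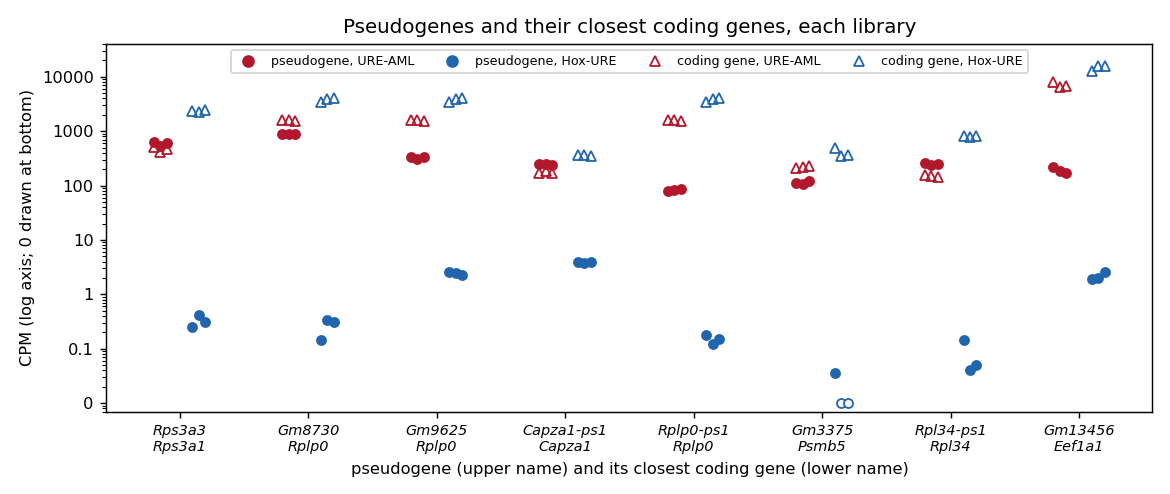
CPM of each library on a log axis for the 8 pseudogenes with the smallest p (filled circles) and the coding gene closest in sequence (open triangles), in URE-AML (red) and Hox-URE (blue), with open circles for libraries at 0. Rps3a3 and Gm8730 lie at 537 CPM or higher in URE-AML and under 0.5 CPM in Hox-URE, and Rps3a1 and Rplp0 are lower in URE-AML.

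Libraries of the same line also differed. Among the 10 protein-coding genes with the widest range over URE-AML libraries, Ngp, Olfm4 and Ms4a3 were highest in URE-AML library 3, whereas Spp1 and Emp1 were highest in library 1. Of the 10 with the widest range in Hox-URE 8 were lowest in library 1, among them Cd200r3, Cyp11a1 (5.83, 88.1 and 262 CPM), Vat1l (5.86, 107 and 258 CPM) and Serpina3g (11.9, 81.0 and 213 CPM). The other genes, Tenm4 (62.0, 10.1 and 4.24 CPM) and Ifrd1 (46.9, 8.99 and 4.50 CPM), were highest there. Of the 31-base words of Serpina3g 71.6% are its own, so its level is uncertain. For these genes a mean over 3 libraries describes the line poorly.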

How the data were processed

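RNA-seq of 9 libraries was examined, 3 each of URE-AML, Hox-URE and Hox-WT, as poly-A selected, stranded libraries per the methods of the study. The authors used Salmon on GRCm38 for transcript abundance and tximport for gene totals. They deposited these as estimated counts, all whole numbers. The transcriptome release, and whether counts were scaled for length, are not given in the sources used here. Salmon divides reads among similar transcripts, so values of near-identical copies are uncertain.

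Of 54347 genes 31051 had no count. The edgeR filterByExpr rule (minimum count 10) kept 13082, and 0.0499% of counts lay outside them. The 2 lines were compared in edgeR 4.0.16 under R 4.3.3 (TMM scaling, quasi-likelihood F test, two-sided, all 9 libraries, line as the only term) and adjusted by Benjamini-Hochberg over all tested genes. The SE of a log2 fold change is its size divided by the square root of F. The common biological coefficient of variation was 0.173. Totals ran from 20331064 to 28588718 counts, so that 3 counts, the floor, correspond to 0.104 to 0.153 CPM. DESeq2 1.42.0 and the other alternatives are given in the closing section. The script was tested on simulated counts.

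The counts of no pair of libraries agreed within sampling noise (chi-square per degree of freedom within a line 19.1 to 106), and all were kept. Genes were matched to GENCODE M21, where 54094 identifiers were found and 253 were not. Genes were named as members of a list, as the 12 called protein-coding genes in each direction with the smallest p or with the largest fold (the latter with at least 10 CPM in every library of the higher line), as the 8 pseudogenes with the smallest p, as the 10 silent genes of each line with the highest level in the other or members of runs of silent neighbours, or as the 10 genes with the widest range among libraries of a line and a mean of at least 20 CPM. The lists, rules and comparison were chosen with earlier results of these data known. The table held counts alone, with no comparisons of the authors. Some list members are not reported here.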

Additional observations from a re-analysis of the deposited data

How the results depend on the processing

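The total of 5591 called genes, 2662 higher and 2929 lower, changed little with the scaling or the tool. DESeq2 called 2653 higher and 2933 lower, relative log expression factors 2653 and 2936, and upper-quartile factors 2626 and 2966. With library size as the only scaling the median of all genes shifted by 0.109 and the split was 3166 higher against 2605 lower, 54.9% higher in place of 47.6%. Under that scaling the median log2 fold change was 0.344 for chromosome 5, in place of 0.234, and -0.273 for chromosome 15, in place of -0.386. Requiring at least 10 counts in each library gave 3730 calls, 1779 higher and 1951 lower, because genes near 0 in 1 line were then not tested. Without a filter 6320 genes were called, and without the fold threshold 3785 were higher and 3801 lower. A test against 1.5-fold gave 4179, and the 6 libraries alone gave 2512 higher and 2819 lower. At 5 CPM in place of 10 in the other line, 134 genes were silent in URE-AML in place of 89.

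With 1 library left out, totals ran from 5478 to 5873, the chromosome 5 median from 0.209 to 0.260, and the chromosome 15 median from -0.406 to -0.351. Ctsg, not called at a log2 fold change of 0.16, ran from -0.13 without URE-AML replicate 3 to 0.44 without URE-AML replicate 1, and was -0.016 without Hox-URE replicate 1. Tenm4, not called at -1.01, ran from -1.50 without Hox-URE replicate 3, where it was called, to 0.81 without Hox-URE replicate 1. The cause was not tested.

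With the replicate number as a block 2680 genes were higher and 2904 lower, 5584 in all. Deviations of libraries with the same number correlated at 0.0512, 0.0444 and 0.0923, so the numbers were not taken to pair the libraries, although each URE-AML library correlated best with its own number. Cybb and Tns1 lost their calls under the block, and Runx1 and Ly6g gained them.

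Of 4446 pairs of a gene named here and a setting, 4391 kept their direction and their side of the threshold. Of 1368 counts of list members called under an alternative, 1282 lay within 1.5 times the reported count. The 3 libraries of a line are not stated to be separate cultures, so p-values measure only the spread between these libraries, and at most 0.153 CPM is the level that a count of 0 allows.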

Other observations

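Abundant genes outside the lists above included enzymes and surface proteins that were at 0 or near it in 1 of the lines. Aldh3a1, an aldehyde dehydrogenase, measured 143, 123 and 127 CPM in URE-AML and 0 CPM in all 3 libraries in Hox-URE (at least 855-fold higher in URE-AML, adjusted p = 1.19e-08), and Ces2g, a carboxylesterase, measured 198, 241 and 242 CPM in URE-AML and 0.0364, 0 and 0 CPM in Hox-URE (ratio 16056 in favour of URE-AML, 95% counting interval 2882 to 634169, adjusted p = 1.69e-09), although only 90.2% of its 31-base words are its own. Clu, the chaperone clusterin, measured 422, 375 and 866 CPM in URE-AML and 0, 0 and 0.0511 CPM in Hox-URE (ratio 39672 in favour of URE-AML, 95% counting interval 7120.4 to 1566970, adjusted p = 4.02e-08). Timp2, a metalloproteinase inhibitor, measured 136, 105 and 123 CPM in URE-AML and 0.109, 0.0829 and 0 CPM in Hox-URE (log2 fold change 10.66 ± 0.32, adjusted p = 3.98e-09, a ratio of 2666 with a 95% counting interval of 738 to 22015 without Hox-URE library 1). In Hox-URE the keratin gene Krt80 measured 169.9, 265 and 247 CPM and was at 0 in URE-AML (at least 1593-fold lower in URE-AML, adjusted p = 8.04e-07), with 19.4 ± 7.80 CPM in Hox-WT. Cd72, a B cell co-receptor, measured 0 CPM in all 3 libraries in URE-AML and 71.7, 85.7 and 82.0 CPM in Hox-URE (at least 559-fold lower in URE-AML, adjusted p = 7.05e-07), and Gpr65, a proton-sensing receptor, measured 0.0404, 0 and 0 CPM in URE-AML and 59.5, 63.6 and 65.8 CPM in Hox-URE (ratio 4327 in favour of Hox-URE, 95% counting interval 777 to 170902, adjusted p = 1.41e-09). Ppp1r14c, a phosphatase inhibitor, was at 0 in URE-AML, at 85.0, 104 and 105 CPM in Hox-URE (at least 687-fold lower in URE-AML, adjusted p = 7.89e-09) and at 203 ± 16.4 CPM in Hox-WT.

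Of 16 dendritic cell genes 5 passed the filter on low counts, of which 1 was higher in URE-AML, 2 were lower and 2 were not called. The higher gene was Tcf4, a factor of plasmacytoid dendritic cells, at 76.3, 82.4 and 73.1 CPM in URE-AML and 29.2, 30.7 and 30.4 CPM in Hox-URE (log2 fold change 1.36 ± 0.10, adjusted p = 1.11e-06).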
